A study of Homo sapiens with 6 samples.

Results

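The 39 HOX genes of clusters A, B, C and D are the subject of this report. Members were the protein-coding rows whose symbol is HOXA, HOXB, HOXC or HOXD followed by a number, a rule that used no measured value. It found 36 genes among the 30015 listed, 9 in each cluster, and HOXA9, HOXA10 and HOXB1 were not analysed here. Of the 36, 25 had a mean of at least 10 normalized counts over the 6 libraries and were among the 15251 genes tested, and 11 lay below that minimum.

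HMV-II is a human melanoma line labelled as vaginal in tissue and melanoma in cell type. Messenger RNA was sequenced in 3 Vector libraries (genotype WT, carrying a scrambled control shRNA) and 3 shEZH2 libraries (EZH2 knockdown). Both groups were made by lentiviral infection and puromycin selection of stable lines, carried the treatment label none, and were grown in F10 medium with 10% fetal bovine serum. The comparison asks which transcripts differ when EZH2 is lowered. A single knockdown line was sequenced, so effects of the shRNA other than that on EZH2 cannot be told apart from those of EZH2 loss. Nothing says that the replicates came from separate cultures, and the p-values may then measure only the spread between these libraries. In bulk RNA, fewer cells expressing a gene and less RNA per cell cannot be told apart.

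HOX genes encode homeodomain transcription factors that give cells their position along the head-to-tail axis. Within each cluster they lie in the order in which they are used along that axis, with low paralogue numbers anterior and high numbers posterior. Polycomb repressive complex 2, whose catalytic subunit EZH2 places methyl groups on lysine 27 of histone H3, is known for keeping HOX clusters silent where they are not in use, while trithorax proteins oppose it.

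EZH2 itself was measured first. In normalized counts, Vector replicates 1, 2 and 3 showed 483, 437 and 552, and the shEZH2 replicates showed 237, 247 and 225. All 3 shEZH2 libraries were below all 3 Vector libraries. The log2 fold change was -1.04 (SE 0.14, limma adjusted p = 0.0142), and the exact two-sided permutation test gave p = 0.1, the smallest that 20 arrangements of 6 libraries allow.

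Depth ranged from 13400290 to 15923029 reads in Vector and from 16129171 to 19128939 in shEZH2 libraries. Vector replicate 2 stood apart. The mean chi-square per gene, about 1 under sampling noise alone, was 119 against Vector replicate 1 and 117 against Vector replicate 3, compared with 2.14 between Vector replicates 1 and 3 and 6.49 to 23.9 between shEZH2 libraries. Results are therefore given with and without it. Of the markers checked, all 8 melanocyte lineage genes were measured above the minimum, and their summed level was 75515 to 100744 normalized counts in Vector and 78898 to 85355 in shEZH2, most of it PMEL. Within that list TYRP1 (1.68 on the log2 scale) and MLANA (0.88) were called higher and TYR (-0.97) lower. Without Vector replicate 2, MLANA was 0.39 and not called, while TYRP1 (1.64) and TYR (-1.22) kept their calls. None of the 3 immune markers in the table reached the minimum, and the fibroblast markers COL1A1, COL3A1, PDGFRB and DCN and the epithelial markers EPCAM, TP63 and KRT14 stayed at group means below 10. The epithelial markers KRT18, CDH1 and KRT8 were expressed, at Vector means of 933, 414 and 208, and none was called. The fibroblast list summed to 176 to 246 in Vector and 251 to 314 in shEZH2, nearly all of it LUM, called higher at 0.74, and COL1A2, called lower at -0.83. The part of these markers in the HOX values was not tested.

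In Vector cells the clusters were used very unevenly. Levels are compared between genes as normalized counts per kilobase of exon, averaged over the 3 Vector libraries. HOXB9, a posterior gene of the B cluster, was highest at 395, followed by HOXC10 at 263, HOXB2 at 190, HOXD13 at 176 and HOXB7 at 155. All 9 listed HOXB genes had a Vector mean of at least 10 normalized counts, as did 8 of 9 HOXC genes, 3 of 9 HOXD genes and 2 of 9 HOXA genes.

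The HOXB cluster lay between 30.2 and 395 per kilobase, and each of its 9 listed genes was expressed. The HOXC cluster was expressed throughout except for HOXC5, at 0.833. In the HOXD cluster HOXD8, HOXD9 and HOXD13 stood at 127, 150 and 176, while HOXD10, HOXD11 and HOXD12, which lie between HOXD9 and HOXD13, were at 0.252, 1.15 and 4.31. The HOXA genes named here were all low. HOXA13, known for patterning the distal limb and the lower genital tract, was at 1.87 and ranked 28 of 36.

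**Figure D1:**
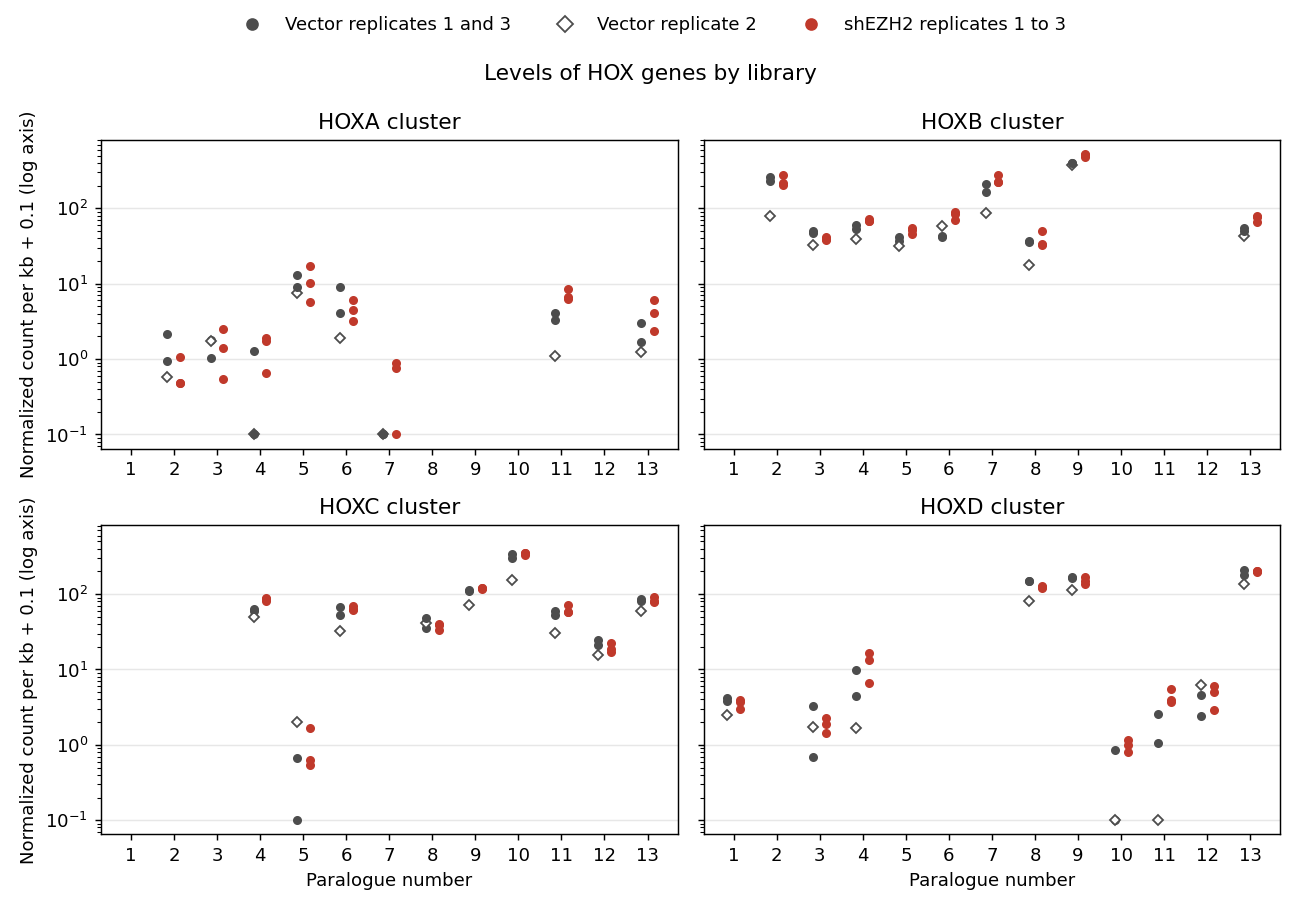
Level of the listed HOX genes in each library, as normalized count per kilobase of exon plus 0.1 on a log axis, by cluster and paralogue number. Points are single libraries, grey for Vector (open diamond, replicate 2) and red for shEZH2; the B and C clusters are filled almost throughout, the A cluster genes drawn are low, and HOXD10 to HOXD12 lie far below HOXD8, HOXD9 and HOXD13.

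Neighbours in the order were close. HOXB2 ranged from 78 to 262 per kilobase over the Vector libraries, so its place against HOXD13 and HOXB7 is within its spread. In every library HOXC10 and HOXB9 were above every HOXA gene.

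RefSeq promoter sequence (GRCh38.p14) is shown for a pair of starts. The table used held windows for 17 of the 36 members, in 22 distinct windows of 250 bases upstream of the start, of which 13 were of HOXA genes (7 of them HOXA3), 8 of HOXD genes and 1 of HOXC genes. Capitals mark CG dinucleotides. HOXA11, the tested member with the largest fold change over all 6 libraries, has the window chr7:27185233-27185482 on the minus strand. HOXC4 and HOXC5 share one RefSeq start and the window chr12:54016638-54016887 on the plus strand. In the gene coordinates used for the counts, HOXC4 begins at 54016931 but HOXC5 only at 54032853, far downstream. The HOXC5 counts therefore need not come from this start. Vector means were 156.7 normalized counts for HOXC4 and 1.504 for HOXC5.
HOXA11: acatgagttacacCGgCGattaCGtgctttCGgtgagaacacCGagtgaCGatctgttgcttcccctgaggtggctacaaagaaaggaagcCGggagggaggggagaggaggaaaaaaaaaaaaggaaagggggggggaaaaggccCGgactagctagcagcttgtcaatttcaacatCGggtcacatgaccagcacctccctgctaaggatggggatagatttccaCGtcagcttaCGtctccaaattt
HOXC4 and HOXC5: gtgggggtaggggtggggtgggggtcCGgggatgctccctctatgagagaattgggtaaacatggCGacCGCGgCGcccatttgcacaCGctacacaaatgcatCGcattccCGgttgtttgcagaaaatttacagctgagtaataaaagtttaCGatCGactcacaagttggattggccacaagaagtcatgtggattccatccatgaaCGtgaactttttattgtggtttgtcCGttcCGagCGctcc

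These windows hold 11 CG dinucleotides for HOXA11 and 14 for the shared HOXC4 and HOXC5 start. The median was 20 over the 22 windows of HOX genes and 11 over all 35116 windows of 27305 genes. Of the motifs searched on both strands, CCAAT was in 59.1% of these 22 windows and 32.01% of all windows, TATAAA in 9.09% and 10.7%, TGATTNAT (bound by HOX and PBX proteins together) in 9.09% and 2.48%, and AGGTCA (bound by nuclear receptors) in 0% and 12.1%. The HOXC4 and HOXC5 window holds CCAAT and none of the others, and the HOXA11 window holds none of these 4 motifs. A match describes the letters only.

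Few HOX transcripts differed by a large factor between the groups. A member was called at an unadjusted limma p under 0.05 with a change of at least 1.5-fold, 0.58 on the log2 scale, the threshold of the study's methods. With all 6 libraries, 3 of 25 tested HOX genes (12%) were called higher, HOXA11, HOXB6 and HOXB13, where 7.55% of all tested genes were. None was called lower, where 7.07% of all genes were; limma, DESeq2 and edgeR each had 0 lower members at an unadjusted p under 0.05. Without Vector replicate 2 the calls were HOXA11 and HOXB6, 8% of members against 7.05% of all genes, and again none was lower, against 5.64% of all genes. These shares lie near the background.

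After Benjamini-Hochberg adjustment over all 15251 genes, limma called 0 HOX genes with all 6 libraries, where 4.12% of all genes were called. At an unadjusted p under 0.05 limma had 7 of 25, where 23.2% of all genes passed, and DESeq2 had 6, where 24% did. With edgeR (TMM factors) 7 passed, against 23.3% of all genes, and 0 after adjustment, against 4.45%. DESeq2 kept HOXB6, HOXB13 and HOXC4 after adjustment, against 10.8% of all genes. Without Vector replicate 2, limma called 4 HOX genes after adjustment, HOXB6, HOXB9, HOXB13 and HOXC4, or 16% against 18.9% of all genes. Those 4 adjusted p-values were 0.0016, 0.029, 0.028 and 0.033, and over all fits they ran up to 0.287, 0.468, 0.314 and 0.284.

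Counting genes whose groups do not overlap gives a broader picture. In 9 of 25 tested members, or 36%, every shEZH2 library lay above every Vector library, where 18.4% of all genes did so. They were HOXA11, HOXB4, HOXB5, HOXB6, HOXB7, HOXB9, HOXB13, HOXC4 and HOXC9, so 6 of the 9 were HOXB genes. None lay wholly below, where 16.5% of all genes did. Without Vector replicate 2, 9 of 25 (36%) lay wholly above, against 25.1% of all genes, and 2 (8%) wholly below, HOXB3 and HOXD8, against 24.9%.

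**Figure D2:**
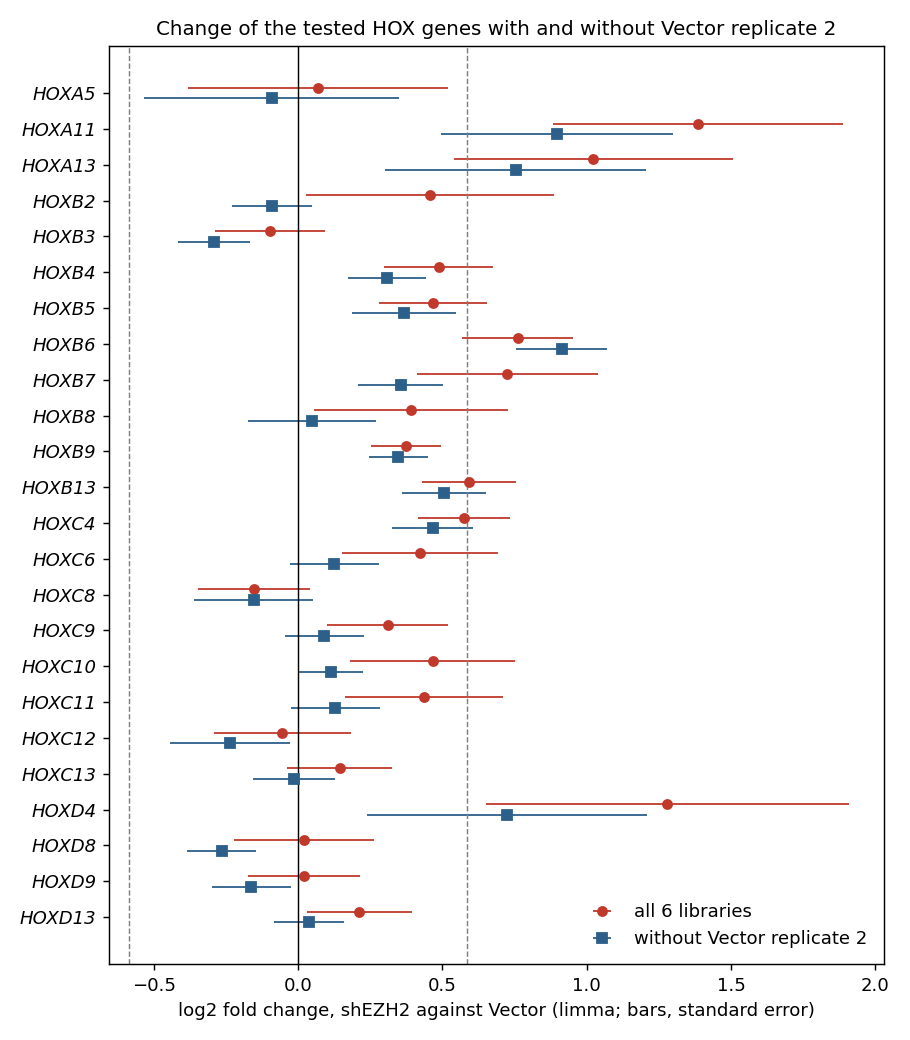
The log2 fold change of shEZH2 against Vector for the tested HOX genes named in the text, in red with all 6 libraries and in blue without Vector replicate 2, with bars for the limma standard error and dashed lines at a 1.5-fold change. HOXB6, HOXA11, HOXA13 and HOXD4 stay beyond the line in both fits, though HOXA13 and HOXD4 were called in neither. HOXB2, HOXD8, HOXD9, HOXA5 and HOXC13 fall on either side of 0.

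HOXA11, a posterior gene used in the limb, kidney and uterus, had the largest log2 fold change of the 25 with all 6 libraries. HOXB6 was just above it without Vector replicate 2, and HOXD4 was above it without Vector replicate 3 or without shEZH2 replicate 3. The HOXA11 normalized counts were 7.3, 2.3 and 9.2 in Vector and 14.3, 19.2 and 15.3 in shEZH2, in replicate order as for all genes here. The groups did not overlap, and the values rest on 2 to 24 reads a library. Its log2 fold change was 1.39 (95% interval 0.22 to 2.55, limma adjusted p = 0.161) and 0.90 without Vector replicate 2. The call was lost on leaving out any 1 of the 3 shEZH2 libraries, with log2 fold changes of 1.47, 1.27 and 1.42. HOXA11-AS, the antisense RNA on its other strand, stood at 0.76 (SE 0.40, limma adjusted p = 0.292), and reads of such a pair cannot be told apart unless counting used the strand, which is not given in the sources used here. The same limit holds for 17 of the 25 tested members, and 13 overlap another listed gene on their own strand.

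HOXB6, a mid-trunk gene, read 109.8, 152.5 and 112.0 in Vector and 182.8, 216.4 and 233.0 in shEZH2. It differs from most members in that Vector replicate 2 was its highest Vector library. The log2 fold change was 0.76 (SE 0.19, limma adjusted p = 0.074) and 0.91 without that library. It was the only member called in all 6 fits that left out a library, from 0.68 to 0.91. With the length trend removed it was 0.55 and no longer called. Its gene lies at chr17:48595751-48604992 on the minus strand in GRCh38 and overlaps HOXB3 on the same strand and HOXB-AS3 on the other. HOXB-AS3 stood at 0.36 (SE 0.24, limma adjusted p = 0.384), and Vector replicate 2 was its highest Vector library as well. Without that library HOXB-AS3 was at 0.53 (SE 0.22, limma adjusted p = 0.110), and its groups no longer overlapped.

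HOXB13, the most posterior B gene, active in the tail end of the trunk and in prostate, read 190.3, 150.2 and 171.1 in Vector and 274.2, 228.4 and 269.2 in shEZH2. The groups did not overlap. The log2 fold change was 0.59 (SE 0.16, limma adjusted p = 0.086), just inside the threshold. It was 0.50 without Vector replicate 2, 0.54 without shEZH2 replicate 1 and 0.56 without shEZH2 replicate 3, which end the call. The call was also lost with DESeq2 and edgeR RLE factors (0.57 each), a pseudocount of 5 (0.58) and the length trend removed (0.43). It overlaps no other listed gene.

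HOXC4, used in the neck and in lymphoid cells and named after its values were seen, lay just outside. It read 161.0, 133.9 and 175.1 in Vector and 243.8, 232.4 and 221.5 in shEZH2, with no overlap. The log2 fold change was 0.57 (SE 0.16, limma adjusted p = 0.090) and 0.47 without Vector replicate 2. It was called when Vector replicate 1, Vector replicate 3 or shEZH2 replicate 3 was left out, at 0.60, 0.66 and 0.61. HOXC5, inside HOXC4 on the same strand, showed 0.0, 3.5 and 1.0 in Vector and 2.9, 0.8 and 1.0 in shEZH2 and was below the minimum.

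**Figure D3:**
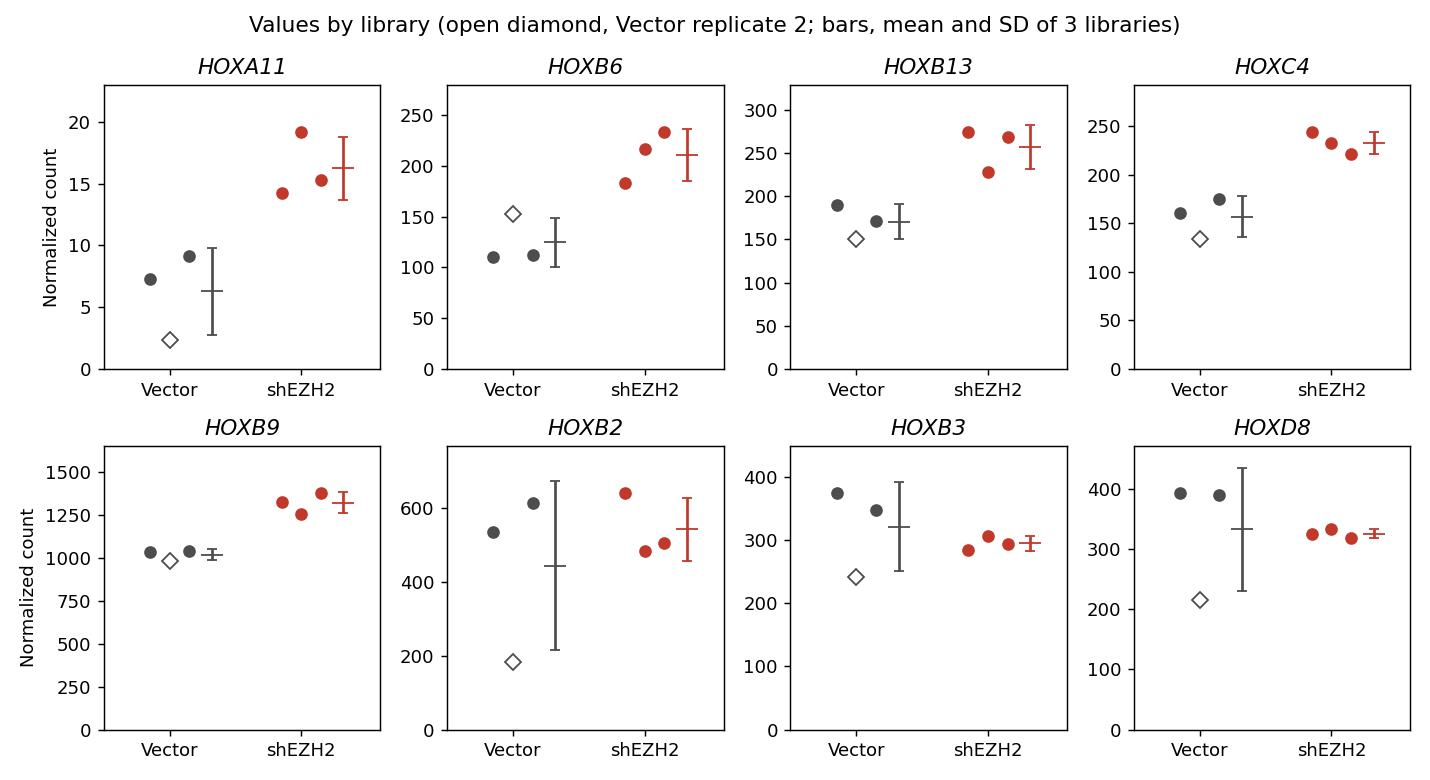
Normalized counts of 8 HOX genes in each library, with the mean and SD of 3 libraries beside the points and an open diamond for Vector replicate 2. HOXA11, HOXB6, HOXB13, HOXC4 and HOXB9 separate the groups, HOXB2 does not, and HOXB3 and HOXD8 separate them the other way only when the diamond is set aside.

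The most highly expressed HOX genes did not pass the threshold. HOXB9, which patterns thoracic levels, read 1032, 983 and 1043 in Vector and 1328, 1258 and 1379 in shEZH2. No overlap was seen, and the log2 fold change of 0.37 (SE 0.12, limma adjusted p = 0.126) was 0.35 without Vector replicate 2. HOXC10, active in lumbar motor neurons and hind limb, read 694, 355 and 790 in Vector and 822, 815 and 769 in shEZH2. Its Vector replicate 2 value is far below the others, and its log2 fold change of 0.47 (SE 0.29) became 0.11 (SE 0.11) without it.

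HOXB2, a hindbrain gene, read 535, 183 and 612 in Vector and 640, 482 and 504 in shEZH2, so the groups overlapped and replicate 2 alone was low. The log2 fold change was 0.46 (SE 0.43) with it and -0.09 (SE 0.14) without it. HOXB7, a trunk gene, read 323, 133 and 256 in Vector and 420, 343 and 347 in shEZH2, with log2 fold changes of 0.73 (SE 0.31) and 0.36 (SE 0.15). HOXB4 and HOXB5 had 0.49 and 0.47 with all libraries and 0.31 and 0.37 without Vector replicate 2. HOXB8 had 0.39 and 0.05.

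HOXB3, which overlaps HOXB4, HOXB5 and HOXB6, was the one HOXB gene with a negative value. It read 374, 241 and 347 in Vector and 284, 307 and 294 in shEZH2. Its log2 fold change was -0.10 (SE 0.19), and -0.29 (SE 0.13, limma adjusted p = 0.128) without Vector replicate 2, when the groups no longer overlapped.

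In the HOXC cluster the other values were small. HOXC9 read 192, 119 and 183 in Vector and 202, 197 and 202 in shEZH2, a log2 fold change of 0.31 (SE 0.21) that was 0.09 without Vector replicate 2. HOXC13, known for hair and nail, read 209, 146 and 196 in Vector and 195, 189 and 219 in shEZH2, and moved from 0.14 to -0.01. HOXC6 and HOXC11 moved from 0.42 and 0.43 to 0.13 each, while HOXC8 was -0.15 either way and HOXC12 -0.05 and then -0.24. None of these was past the test.

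No expressed HOXD gene was called in either fit. HOXD13, which shapes digits, read 475, 304 and 401 in Vector and 452, 441 and 452 in shEZH2, a log2 fold change of 0.21 (95% interval -0.21 to 0.64). HOXD9 read 310, 214 and 318 in Vector and 315, 277 and 252 in shEZH2, at 0.02 (interval -0.43 to 0.48), and -0.16 without Vector replicate 2. HOXD8 read 393, 215 and 390 in Vector and 325, 334 and 319 in shEZH2. Its log2 fold change of 0.02 became -0.26 (SE 0.12, limma adjusted p = 0.147) without Vector replicate 2, where its unadjusted limma p was under 0.05 and its change under 1.5-fold. HOXD4, at 6.3, 2.3 and 14.3 in Vector and 23.8, 19.2 and 9.5 in shEZH2, had 1.28 (SE 0.63) and 0.72 (SE 0.48), with overlapping groups.

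HOXA5, a cervical and thoracic gene, read 22.0, 12.8 and 15.3 in Vector and 29.5, 17.6 and 9.5 in shEZH2, with log2 fold changes of 0.07 (SE 0.45) and, without Vector replicate 2, -0.09. HOXA13 read 14.6, 5.8 and 8.1 in Vector and 19.996, 30.3 and 11.5 in shEZH2, at 1.02 (SE 0.48) and 0.75. HOXA6 read 11.5, 2.3 and 5.1 in Vector and 5.7, 4.0 and 7.6 in shEZH2 and was below the minimum. None of these 3 separated the groups.

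The 11 members below the minimum were HOXA2, HOXA3, HOXA4, HOXA6, HOXA7, HOXC5, HOXD1, HOXD3, HOXD10, HOXD11 and HOXD12. Their group means lay between 0 and 9.02 normalized counts. Summed, they gave 40.8, 32.6 and 44.8 in Vector and 54.3, 49.5 and 43.0 in shEZH2, so the groups overlapped. HOXD11, named after its values were seen, had 5, 0 and 2 reads in Vector and 12, 10 and 8 in shEZH2, with no overlap between groups. HOXA7 had 0 reads in each Vector library, where a count of 0 allows up to 3, and 2, 2 and 0 reads in shEZH2.

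Most of the general shift of the family moved with Vector replicate 2. It was the lowest of the 6 libraries in 22 of 25 tested HOX genes (88%) and in 37.6% of all tested genes. Its median difference from the mean of the other Vector libraries was -0.58 on the log2 scale over the HOX genes and -0.02 over all genes. In that library, deviation followed transcript length over all genes, from -0.54 in the shortest of 5 equal length classes (53 to 2323 bases) to 0.42 in the longest, and 23 of the 25 HOX genes were in the 2 shortest classes. Their median length was 2423 bases, against 4622 for all tested genes. The part of length in the HOX values was not tested.

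**Figure D4:**
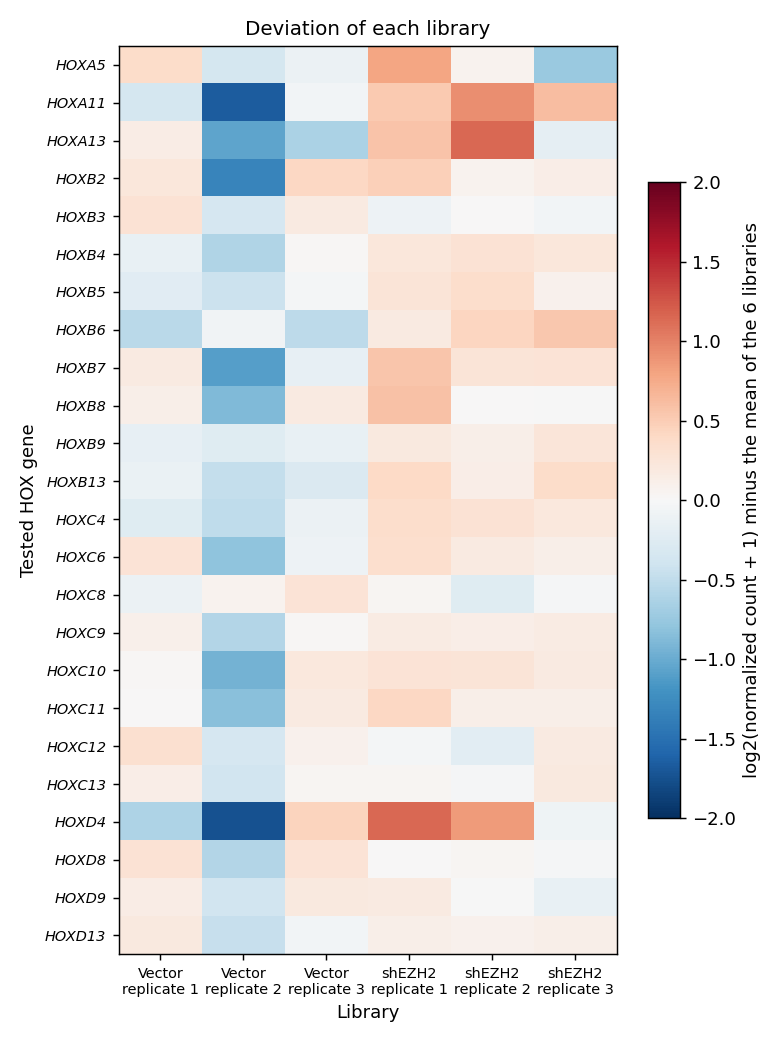
Deviation of each library from the mean of the 6 libraries, as log2(normalized count + 1), for the tested HOX genes named in the text (rows) and 6 libraries (columns); blue is below and red above the mean. The column of Vector replicate 2 is the lowest in each row, the exceptions being HOXA5, HOXB6 and HOXC8.

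The median log2 fold change of the 25 was 0.42, beside 0.04 for all tested genes, and 0.11 beside -0.01 without Vector replicate 2. With the length trend removed within each library it was 0.24 beside 0.01. Positive values were found for 22 of 25 (88%, against 53.5% of all genes), for 16 (64%, against 49.4%) without that library and for 16 with the length trend removed.

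By cluster, the median log2 fold change was 0.59 in A (4 genes), 0.47 in B (9), 0.37 in C (8) and 0.12 in D (4). Without Vector replicate 2 these were 0.35, 0.35, 0.10 and -0.06. By position along the cluster, paralogues 1 to 3 had 0.16 and -0.09 (3 genes), 4 to 8 had 0.47 and 0.31 (11 genes), and 9 to 13 had 0.37 and 0.11 (11 genes). Differences between clusters or positions were not tested. The summed level of the HOXB genes was 2912, 2088 and 2925 in Vector and 3594, 3283 and 3444 in shEZH2. The HOXC genes summed to 1822, 1097 and 1886 in Vector and to 2088, 1966 and 1963 in shEZH2, so neither sum overlapped between groups. The HOXD genes summed to 1202, 754 and 1153 in Vector and to 1145, 1103 and 1063 in shEZH2, with overlap.

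Genes around and above the clusters were taken from lists. Of all tested genes, 7.55% were called higher and 7.07% lower with all 6 libraries. Without Vector replicate 2 these shares were 7.05% and 5.64%. Of 10 tested noncoding RNAs of the HOX clusters, 0 were called with all 6 libraries. At an unadjusted p under 0.05 limma, DESeq2 and edgeR (TMM factors) also had 0, where 23.2%, 24% and 23.3% of all genes passed. Without Vector replicate 2, HOTAIRM1, an RNA of the HOXA cluster, was called lower at -0.73, having read 197, 49 and 148 in Vector and 97, 102 and 108 in shEZH2, and HOXD-AS2 at -0.80. HOTAIR, transcribed within the HOXC cluster, was at 0.23 (SE 0.24). Of 13 flanking genes, 2 were called lower, JAZF1 at -1.01 (limma adjusted p = 0.025) and CBX5 at -0.74, and only JAZF1 was without Vector replicate 2.

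HOX proteins bind DNA with cofactors of the TALE family. Of 11 listed genes of the TALE family, not all of them HOX partners, 2 were called higher and 0 lower. Of all tested genes, 7.55% and 7.07% were. TGIF2, a TALE repressor, read 516, 383 and 446 in Vector and 831, 775 and 804 in shEZH2, a log2 fold change of 0.85 (limma adjusted p = 0.027). PBX3, a HOX partner, read 154, 136 and 116 in Vector and 230, 245 and 226 in shEZH2, at 0.79 (limma adjusted p = 0.040). Both kept their call without Vector replicate 2, at 0.74 and 0.80. MEIS1 and MEIS2, at 0.26 and -0.01, were not.

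Among 16 trithorax-group and related activators, ASH2L was called higher at 0.72 (limma adjusted p = 0.035), where 7.55% of all tested genes were called higher. None was called lower by limma or edgeR, whereas DESeq2 called KMT2D lower, where it called 8.66% of all genes lower. KMT2D read 4532, 11626 and 4289 in Vector and 3381, 3649 and 4496 in shEZH2. In the limma fit it was at -0.68, and at -0.21 without Vector replicate 2, with overlapping groups either way. Of 9 tested upstream regulators of HOX patterning, chiefly of retinoic acid, none was called. An unadjusted limma p under 0.05 was found for 2, where 23.2% of all genes passed. DESeq2 kept 1 after adjustment, against 10.8% of all genes. Without Vector replicate 2 none was called either. Of the 9, 4 then had a limma adjusted p under 0.05, in both directions, where 18.9% of all genes did. RARA, a retinoic acid receptor, stood at -0.38, and at -0.42 without that library. In the 6 core subunits of Polycomb repressive complex 2, EZH2 was the only one called. RBBP4 was at -0.36 (limma adjusted p = 0.166), with no overlap, SUZ12 at -0.26, EED at 0.32, EZH1 at -0.16 and RBBP7 at 0.21. Without Vector replicate 2, RBBP4 was at -0.36 (limma adjusted p = 0.039), SUZ12 at -0.26, EED at 0.02, EZH1 at -0.17 and RBBP7 at 0.06.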

How the data were processed

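Poly(A) RNA of HMV-II was sequenced in 3 Vector and 3 shEZH2 libraries on an Illumina NovaSeq. Per the labels, the authors used featureCounts to count the reads of a gene and DESeq2 1.20.0 to compare groups. The deposited table holds signal values, which the authors made by dividing each gene's reads by a size factor for its library; the aligner and strand setting are not given in the sources used here. The labels name hg19, whereas the table's coordinates follow GRCh38. Columns of the authors' fold changes and p-values were not used, and 0 sample columns were left out. In each library 100% of values were whole multiples of 1 read (tolerance 0.001), which gave back the reads. Columns were matched to groups by the letters in their heading, shNC for Vector and sh1 for shEZH2.

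Groups were compared with limma 3.58.1 (R 4.3.3) on log2(normalized count + 1), with a mean-variance trend, over the 15251 genes that averaged 10 or more. Fold changes are on this scale, which understates those of low genes. No replicate block was used. Alternatives, which used the reads for edgeR 4.0.16 and for DESeq2 1.42.0, included other pseudocounts and minimums, adjusted p-values, removal of a length trend, a replicate block and each library left out. The limma fit was tested on simulated data. Counting error only is covered by the limit for 0 reads. The members and lists were chosen with earlier results of these data known. Values by library are given for members past the threshold, the 3 highest per kilobase in each cluster, members whose sign differs without Vector replicate 2, and others where stated. A few genes are not reported here by name, though counts and medians over the lists include them.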

Additional observations from a re-analysis of the deposited data

How the results depend on the processing

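EZH2 kept its direction and call in every alternative run, from -1.12 to -0.96 on the log2 scale with each library left out. No HOX gene was called lower in any alternative. The count of HOX genes called higher, 3, became 0 with adjusted p-values, 5 with no minimum (HOXB7 and HOXD11 added, 5.67% of all genes), and 1, HOXA11, with the length trend removed (6.77% of all genes). It was 2, HOXB13 being lost, with DESeq2, edgeR RLE factors and a pseudocount of 5 (6.85%, 6.69% and 7.38% of all genes). With each library left out it ran from 1 to 7, being 7 without Vector replicate 1 or Vector replicate 3 (9.999% and 9.38% of all genes), 2 without Vector replicate 2 (7.05%) and 1 without shEZH2 replicate 1 (5.57%). The members that joined were HOXA13 (1.35), HOXB7 (0.99), HOXC4 (0.60) and HOXC6 (0.67) without Vector replicate 1, HOXB4 (0.62), HOXC4 (0.66), HOXC10 (0.69) and HOXD4 (1.82) without Vector replicate 3, and HOXA13 (1.37) and HOXC4 (0.61) without shEZH2 replicate 3. The median log2 fold change ran from 0.11 without Vector replicate 2 to 0.57, and the spread of library medians within groups was 0.21 (SD). The cause was not tested.

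Small values changed sign. With the length trend removed, HOXA5 was -0.13, HOXC13 -0.072, HOXD8 -0.19, HOXD9 -0.19 and HOXD13 -0.0062. HOXD8 and HOXD9 were -0.048 and -0.014 with DESeq2 and with edgeR RLE factors, and HOXD8 was -0.034 with edgeR TMM factors. Over the fits leaving out a library, values ran from -0.30 to 0.46 for HOXA5, -0.090 to 0.78 for HOXB2, -0.29 to 0.027 for HOXB3, -0.24 to 0.095 for HOXC12, -0.013 to 0.25 for HOXC13, -0.26 to 0.17 for HOXD8 and -0.16 to 0.12 for HOXD9.

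Deviations of libraries sharing a replicate number correlated at 0.28, 0.22 and -0.11. Vector replicate 2 dominates the Vector deviations, so these values cannot decide whether the numbers pair the samples. With a replicate block, 4 HOX genes were called higher, HOXB7 being added, 0 were called lower, and the median stayed 0.42; of all genes 8.67% were called higher and 7.29% lower. Members under about 20 reads, such as HOXA11 and HOXD4, carry wide intervals at this depth.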
